A study of Homo sapiens with 18 samples.

Results

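The genes described here encode proteins that bind the microtubule or its tubulin subunits: the lattice-binding proteins MAPT (tau), MAP1B, MAP2 and DCX (doublecortin), the plus-end proteins CLASP2, CKAP5 and MAPRE1 (EB1), the tubulin polymerization promoter TPPP, and the stathmins STMN1 and STMN2. Their members are all probe sets that the platform annotation assigns to 1 of these 10 genes alone, which gave 19 probe sets of the 22283 on the array, and 10 of the 11963 genes that have a probe set of their own. Of these, 17 reached 50 or more on 3 or more arrays and were tested, and both STMN2 probe sets did not reach this limit.

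The cells were SK-N-MC, a human line that the labels call a neuroepithelioma and the study a neuroblastoma, grown in pyruvate-free medium. All groups received the ethanol vehicle, alone (1w0 nM and 4w0 nM), or with 5 nM rotenone (1w5 nM and 4w5 nM) or 50 nM rotenone (1w50 nM and 4w50 nM), for 1 week or 4 weeks. The labels describe the lower dose as non-lethal and the higher as killing some of the cells. Each of the 6 groups has 3 arrays, 1 from each of 3 experiments, and every array holds RNA pooled from 5 dishes. The line has a single origin, so a p-value here speaks of the spread among such pools. The values are probe set signals on a linear scale, and signals of different probe sets are not set against each other. In bulk RNA of this kind, fewer cells of a type and less RNA per cell cannot be told apart.

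Microtubules are polymers of tubulin that grow and shrink mostly at their plus ends. Proteins on the lattice or at the end slow shrinkage or speed growth, whereas stathmins bind free tubulin and favour shrinkage. Rotenone is known as an inhibitor of complex I of the respiratory chain and also as an agent that binds tubulin and depolymerizes microtubules. In neurons, tau, MAP1B, MAP2 and doublecortin organize the microtubules of axons and dendrites.

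Some facts of the whole series touch the values. The 18 probe sets of the hybridization controls, which report RNA added to each sample, were on the 6 arrays of the 4-week rotenone groups at 0.496 of their level on the other 12 arrays, with no overlap. The comparisons with 4w0 nM cross this line and the comparison of 4w50 nM with 4w5 nM does not, so for the former this difference and rotenone cannot be told apart. Replicate 3 of 1w0 nM correlated with the other arrays of its group at 0.908 to 0.933 across probe sets, below the 0.98 that replicates 1 and 2 had with each other. Replicate 2 of 1w0 nM correlated at 0.955 to 0.967 with the 4w5 nM arrays and at 0.96 to 0.966 with those of 4w0 nM. Of the 6 measured markers of Ewing family tumours, including CD99, NKX2-2 and FLI1, all passed the filter, and their summed signal was 11169 to 11625 in 4w0 nM, 10509 to 11906 in 4w5 nM and 8487 to 9786 in 4w50 nM, the last below the vehicle without overlap. From 4w0 nM to 4w50 nM the mean of CD99 went from 3310 to 2280 and that of CCND1 from 1690 to 895. NKX2-2 and PRKCB were lower too, whereas STEAP1 (2780 to 2890) and FLI1 (440 to 529) were higher. Of the sympathetic neuroblastoma markers, PHOX2A, HAND2 and TH were near background, with group means of at most 23.1, whereas GATA3 (116 to 201), MYCN (102 to 160), DBH (33.4 to 59.1) and CHGA (30.8 to 62.9) passed the filter. The summed signal of 9 neuronal markers was 3557 to 3942 in 4w0 nM, 1822 to 3765 in 4w5 nM and 1969 to 2354 in 4w50 nM, and NEFM, a neurofilament, had group means of at most 6. Most of this sum is TUBB3, and single markers differed in direction, as SNAP25 had a mean of 177 in 4w0 nM and 211 in 4w50 nM. The summed signal of 9 fibroblast and mesenchyme markers was 10257 to 10602, 6471 to 8332 and 6843 to 7378 in the same order. Several of their means were higher in 4w5 nM than in 4w0 nM, those of LUM (366 against 103), COL3A1 (1170 against 830), DCN (1020 against 745) and THY1 (268 against 253), and the others were lower. In 4w50 nM only COL1A1 was higher (949 against 942). That of 6 proliferation markers was 6674 to 7078, 6424 to 8864 and 5653 to 7736. The fibroblast sum at both doses and the neuronal and Ewing sums at 50 nM lay below the 4w0 nM arrays without overlap. So did the sympathetic neuroblastoma sum at 50 nM (320 to 349 against 451 to 470). The sum of glial markers, of which 2 passed the filter, was 230 to 431 in 4w5 nM, below the 472 to 578 of 4w0 nM. Of these 2, the mean of S100B was lower in 4w5 nM (104 against 411) and that of FABP7 higher (126 against 38.4). The other 4-week ranges overlapped those of 4w0 nM. The part of these markers in the results on the 10 genes was not tested.

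After 1 week few of the 17 probe sets moved, and after 4 weeks 7 changed with 5 nM and 8 with 50 nM rotenone. In 4w5 nM against 4w0 nM, 3 probe sets rose (2 of CLASP2 and 1 of MAP1B) and 4 fell (both of DCX, TPPP and 1 of MAPT), or 41.2% of the 17, where 32.4% of all 13705 probe sets tested were called, 18.3% higher and 14.1% lower. In 4w50 nM against 4w0 nM, 6 rose (all 3 of CLASP2 and 1 each of CKAP5, MAPRE1 and MAP1B) and 2 fell (TPPP and 1 of MAPT), or 47.1%, where 41% of all were called, 22.9% higher and 18.1% lower. The median log2 change of the 17 was 0.08 with 5 nM, against 0.03 over all probe sets, and 0.27 with 50 nM, against 0.01. A probe set is called here at an adjusted p below 0.05 in limma, with p-values adjusted by Benjamini and Hochberg over all probe sets tested. Both doses share the 4w0 nM arrays, so their counts are not independent. Groups of 3 arrays that do not overlap are common in these data. In 4w5 nM against 4w0 nM this held for 52.8% of all probe sets and 10 of the 17. In 4w50 nM against 4w0 nM it held for 60.4% and 11, and between the 4-week doses for 33.1% and 5. Against 1w0 nM it held for 24.3% and 4 in 1w5 nM, and for 31.4% and 6 in 1w50 nM.

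**Figure D1:**
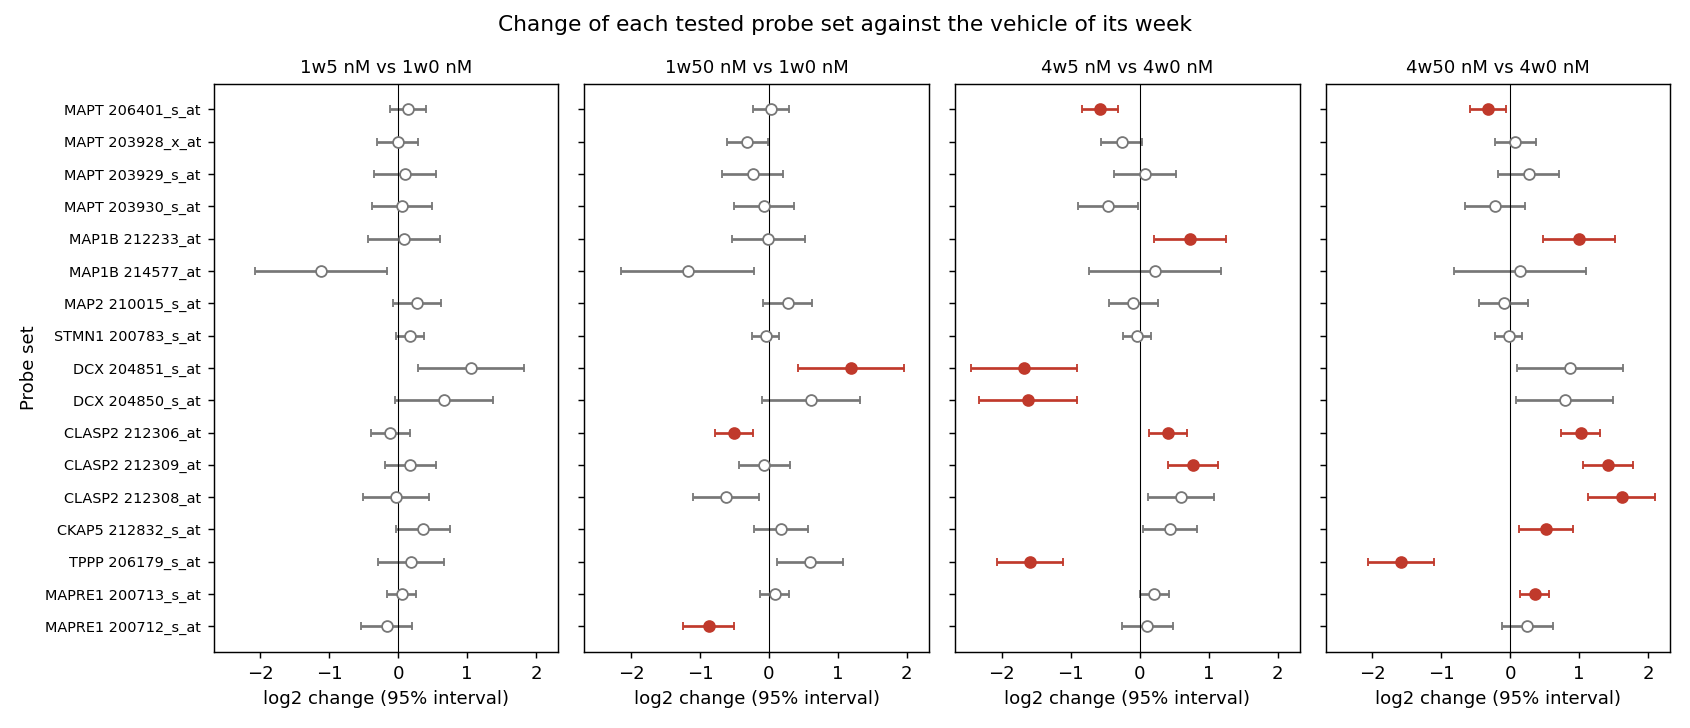
Log2 change of each of the 17 tested probe sets against the vehicle of the same week, with 95% confidence intervals from limma, for each dose and week, with called changes filled in red. CLASP2 lies above 0 at 4 weeks and further out at 50 nM, TPPP lies at -1.58 for both doses, and DCX lies below 0 at 4 weeks with 5 nM and above 0 with 50 nM.

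DCX, which binds between protofilaments and marks migrating young neurons, was the member whose 2 doses differed most at 4 weeks. The first of its 2 probe sets, 204851_s_at, had signals of 342, 345 and 322 in 4w0 nM, 177, 98.3 and 66.1 in 4w5 nM, and 583, 657 and 604 in 4w50 nM. All 5 nM arrays lay below the vehicle and all 50 nM arrays above it, in comparisons where 52.8% (5 nM) and 60.4% (50 nM) of all probe sets did not overlap. The second, 204850_s_at, gave 326, 298 and 279, then 137, 85.5 and 79.6, then 639, 424 and 514, in the same order without overlap. DCX fell with 5 nM by 1.68 on the log2 scale (SE 0.37, limma adjusted p = 0.00216) and by 1.62 on the other probe set (adjusted p = 0.00155). With 50 nM the changes of 0.87 and 0.79 did not pass the test (adjusted p = 0.0662 and 0.0694, limma). Compared directly, the level of DCX under 50 nM was 5.85 times that under 5 nM (log2 2.55, limma adjusted p = 0.000468) and 5.31 times on the other probe set (adjusted p = 0.000404). Both differences between the doses, and both falls with 5 nM, passed under every limma alternative run and without each array in turn.

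At 1 week the DCX signals of 204851_s_at were 227, 74.6 and 273 in 1w0 nM, 355, 382 and 303 in 1w5 nM, and 441, 408 and 308 in 1w50 nM. Replicate 2 of 1w0 nM was the low one, within the range of the 4w5 nM arrays, and the same array was low on 204850_s_at, at 94.0 against 245 and 343. DCX rose with 50 nM by 1.20 (SE 0.37, limma adjusted p = 0.0265), but without this array the change was 0.62 (adjusted p = 0.13), and the call was also lost without replicate 1 or replicate 2 of 1w50 nM and with no filter on low signals. On 204850_s_at the change at 50 nM was 0.61 and did not pass (limma adjusted p = 0.204). The effect of 5 nM differed between weeks by -2.73 (limma adjusted p = 0.000806), and by -2.15 without replicate 2 of 1w0 nM (adjusted p = 0.000464). For 50 nM, the difference between weeks was -0.33 with a 95% interval from -1.42 to 0.76.

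The 250 bases upstream of the first listed start of DCX, TPPP and CLASP2, the members with the largest changes, are shown at each gene to let the reader compare their composition. They come from RefSeq on GRCh38.p14, on the strand of the gene, and capitals mark matches, on either strand, to GGGCGG, known as the GC box, to CCAAT, to the TATA box letters TATAAA, to TGACNNNGC found in antioxidant response elements, or to TGATGNAAT of the stress factor ATF4. These are present in 42.3%, 33.0%, 11.1%, 11.0% and 0.916% of the same windows of 27305 promoters, in this order, and no matches overlapped in the 3 windows shown. DCX and CLASP2 have 3 listed starts each and TPPP has 1. For DCX the window is chrX:111412193-111412442 on the minus strand, with 42.8% G and C (median of all promoters 58.0%). It has a single match to the TATA box letters, in the part of the window far from the start.
DCX: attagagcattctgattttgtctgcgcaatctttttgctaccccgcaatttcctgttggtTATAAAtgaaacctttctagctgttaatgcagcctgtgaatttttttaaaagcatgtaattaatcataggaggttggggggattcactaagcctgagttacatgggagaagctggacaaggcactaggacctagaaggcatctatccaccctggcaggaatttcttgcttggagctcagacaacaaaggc

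TPPP promotes tubulin polymerization and bundles microtubules, and is best known from oligodendrocytes. Its only probe set was dim. Its signals were 41.7, 52.8 and 50.1 in 4w0 nM, 13.1, 7.70 and 12.8 in 4w5 nM, and 12.9, 9.51 and 8.32 in 4w50 nM. All 6 arrays with rotenone at 4 weeks lay below the floor of 16 that was set before log2 was taken, so the fold is a bound. TPPP was at least 3.00-fold lower with either dose (log2 -1.58, SE 0.23, limma adjusted p = 8.47e-05 for 5 nM and 4.86e-05 for 50 nM), and no order between the doses can be read below the floor. The floor also took away the spread within both 4-week rotenone groups, so the SE and p-values of TPPP depend on it. It passed the filter through 6 arrays of at least 50, none of them from the 4-week rotenone groups.

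At 1 week TPPP was not lower with rotenone, with signals of 32.8, 50.7 and 34.6 in 1w0 nM, 43.3, 56.7 and 34.2 in 1w5 nM, and 45.6, 60.7 and 71.7 in 1w50 nM. The groups overlapped, and the change of 0.60 with 50 nM did not pass (limma adjusted p = 0.0698). The effect of rotenone differed between weeks by -1.77 for 5 nM (adjusted p = 0.000622) and -2.18 for 50 nM (limma adjusted p = 4.39e-05), values that the floor of 16 sets and that are bounds like the folds. With the floor at 32 the first of these was -0.77 and no longer passed (adjusted p = 0.0506), and the falls at 4 weeks were held by that floor to -0.58 (adjusted p = 0.0356 and 0.0295). The window upstream of TPPP, chr5:693353-693602 on the minus strand, has 84.0% G and C, with 10 GC boxes and 1 CCAAT box.
TPPP: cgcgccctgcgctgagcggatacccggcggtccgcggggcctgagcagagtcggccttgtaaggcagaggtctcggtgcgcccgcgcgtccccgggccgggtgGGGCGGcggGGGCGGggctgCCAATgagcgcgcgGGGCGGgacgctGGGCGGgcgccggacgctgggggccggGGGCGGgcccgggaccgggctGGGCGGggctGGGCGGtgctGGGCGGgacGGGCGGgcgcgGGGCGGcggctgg

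CLASP2 binds growing plus ends and stabilizes microtubules near the cell edge and the Golgi. On its brightest probe set, 212306_at, the signals were 448, 413 and 421 in 4w0 nM, 624, 592 and 496 in 4w5 nM, and 1007, 814 and 799 in 4w50 nM. The 3 groups did not overlap and stood in the order of dose. Taken in pairs, 52.8% (4w5 nM and 4w0 nM), 60.4% (4w50 nM and 4w0 nM) and 33.1% (both doses) of all probe sets did not overlap. The share of all probe sets in such an order was not counted. On 212309_at they were 183, 189 and 152, then 335, 278 and 281, then 547, 547 and 334, where a single 50 nM array came down to the range of the 5 nM arrays. On 212308_at they were 57.4, 64.8 and 63.9, then 122, 109 and 61.7, then 230, 195 and 152. Here 1 of the 5 nM arrays lay within the vehicle range.

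With 50 nM at 4 weeks CLASP2 rose by 1.02 (SE 0.13, limma adjusted p = 2.27e-05), 1.42 (adjusted p = 1.35e-05) and 1.62 (adjusted p = 4.18e-05) on these probe sets, which is 2.03-fold to 3.06-fold. The 3 calls passed under all limma alternatives run and without each array in turn. With 5 nM it rose on 212306_at by 0.41 (limma adjusted p = 0.0250) and on 212309_at by 0.77 (adjusted p = 0.00268), and the change of 0.60 on 212308_at did not pass (adjusted p = 0.0544). The first of these was lost after quantile normalization and without replicate 2 or 3 of 4w0 nM or replicate 1 or 2 of 4w5 nM. Levels in 4w50 nM were above those in 4w5 nM by 0.61, 0.65 and 1.02 (limma adjusted p = 0.00484, 0.0166 and 0.00578), of which that of 212309_at was lost without replicate 2 of 4w5 nM or replicate 1 or 2 of 4w50 nM. 

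At 1 week the direction with 50 nM was the other. The signals of 212306_at were 427, 375 and 465 in 1w0 nM, 385, 376 and 404 in 1w5 nM, and 261, 313 and 319 in 1w50 nM, all 3 of the last below every vehicle array. CLASP2 fell by 0.50 on this probe set (SE 0.13, limma adjusted p = 0.0123), which was lost without replicate 1 of 1w50 nM, after quantile normalization and with array weights. On 212308_at the change was -0.62 (adjusted p = 0.0612) and on 212309_at -0.06 (limma adjusted p = 0.826), so the fall rests on 1 probe set. The effect of 50 nM differed between weeks on all 3 probe sets, by 1.53 (adjusted p = 8.74e-06), 1.48 (adjusted p = 0.000119) and 2.23 (limma adjusted p = 3.6e-05). The window upstream of CLASP2, chr3:33718255-33718504 on the minus strand, has 62.4% G and C and held no match to the letters searched.
CLASP2: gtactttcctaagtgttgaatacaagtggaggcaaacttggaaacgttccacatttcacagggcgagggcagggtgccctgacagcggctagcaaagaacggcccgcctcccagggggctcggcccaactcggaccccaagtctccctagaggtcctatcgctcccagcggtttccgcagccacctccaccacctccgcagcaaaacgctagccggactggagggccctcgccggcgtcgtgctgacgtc

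**Figure D2:**
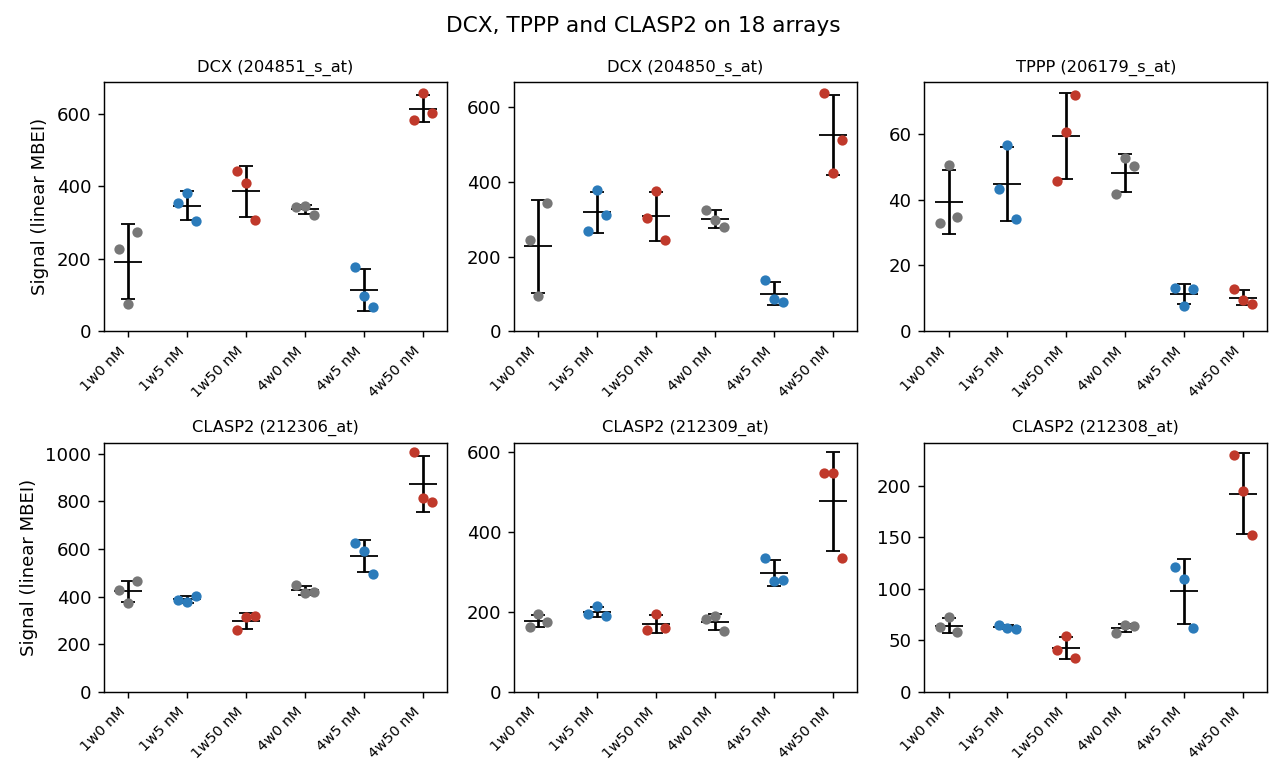
Linear signal of each array (points) for the probe sets of DCX, TPPP and CLASP2 in the 6 groups of 3 arrays, with the mean of each group as a dash and its SD as the error bar. DCX is lowest in 4w5 nM apart from replicate 2 of 1w0 nM, CLASP2 is highest in 4w50 nM, and all 6 TPPP signals of the 4-week rotenone groups lie under the floor of 16.

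The other plus-end proteins moved less. CKAP5, the human XMAP215 protein that speeds tubulin addition, had signals of 1328, 1175 and 982 in 4w0 nM, 1573, 1564 and 1575 in 4w5 nM, and 1760, 1713 and 1478 in 4w50 nM. Every rotenone array lay above every vehicle array, in comparisons where 52.8% (5 nM) and 60.4% (50 nM) of all probe sets did not overlap. CKAP5 rose with 50 nM by 0.51 (SE 0.19, limma adjusted p = 0.0345), and the change of 0.45 with 5 nM did not pass (adjusted p = 0.0735). The call was lost without replicate 2 or 3 of 4w0 nM and without replicate 1 or 2 of 4w50 nM, and with no filter on low signals. At 1 week, replicate 3 of 1w0 nM was low, at 637 against 1174 and 1177, and no change was called.

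MAPRE1, or EB1, tracks growing ends and recruits other plus-end proteins, and its 2 probe sets did not move alike. On 200713_s_at the signals were 2575, 2243 and 2343 in 4w0 nM, 2987, 2954 and 2381 in 4w5 nM, and 3349, 2854 and 2953 in 4w50 nM. It rose with 50 nM by 0.35 (SE 0.10, limma adjusted p = 0.00879), a call lost without replicate 1 of 4w50 nM (adjusted p = 0.0574). On 200712_s_at the signals were 716, 849 and 825 in 4w0 nM and 960, 994 and 878 in 4w50 nM, with a change of 0.25 that did not pass (adjusted p = 0.275). At 1 week the signals of this probe set went from 874, 806 and 666 in 1w0 nM to 425, 313 and 570 in 1w50 nM. It fell by 0.87 on the log2 scale (SE 0.18, limma adjusted p = 0.00262), whereas 200713_s_at read 2553, 2404 and 2289 in the same 1w50 nM arrays, a change of 0.08 (adjusted p = 0.587). Over the 18 arrays the log2 signals of the 2 probe sets correlated at 0.39, against 0.96 for those of DCX and 0.89 to 0.94 for those of CLASP2, with groups and arrays shared by all points.

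MAP1B, a neuronal lattice protein expressed early in axon growth, had signals on 212233_at of 212, 214 and 221 in 4w0 nM, 418, 384 and 285 in 4w5 nM, and 605, 504 and 264 in 4w50 nM. Both rotenone groups lay above the vehicle, and the third array of each was the lowest of its group. MAP1B rose with 5 nM by 0.73 (SE 0.25, limma adjusted p = 0.0328) and with 50 nM by 1.00 (adjusted p = 0.00402). The first call was lost without each of the 4w0 nM arrays, without replicate 1 or 2 of 4w5 nM, after quantile normalization and with no filter. The second passed without each array in turn. At 1 week the change with 50 nM was -0.01 (95% interval -0.53 to 0.52), and the effect of 50 nM differed between weeks by 1.01 (limma adjusted p = 0.0273), lost without replicate 3 of 1w50 nM, replicate 1 of 4w0 nM, or replicate 1 or 2 of 4w50 nM, after quantile normalization and with no filter.

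The dimmer MAP1B probe set, 214577_at, was between 11.4 and 71.5 over the 18 arrays and was called in no comparison. At 1 week its signals were 70.5, 60.7 and 66.0 in 1w0 nM, 22.8, 46.3 and 26.2 in 1w5 nM, and 35.0, 22.1 and 31.6 in 1w50 nM. Both rotenone groups lay below the vehicle, but neither change passed (-1.12, limma adjusted p = 0.147, and -1.18, adjusted p = 0.0733). The 2 MAP1B probe sets correlated at 0.43 over the 18 arrays.

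MAPT, or tau, stabilizes axonal microtubules and forms the tangles of tauopathies. On 206401_s_at, the brightest of its 4 probe sets by mean log2 signal, the signals were 848, 825 and 784 in 4w0 nM, 589, 508 and 562 in 4w5 nM, and 633, 734 and 599 in 4w50 nM. All 6 rotenone arrays lay below all vehicle arrays. MAPT fell on this probe set with 5 nM by 0.57 (SE 0.12, limma adjusted p = 0.00214), which held under all limma alternatives run. It fell by 0.33 with 50 nM (adjusted p = 0.0424), and this call was lost after median scaling and on leaving out each of 9 arrays, all 3 of 4w0 nM and replicates 1 and 3 of 4w50 nM among them (limma adjusted p from 0.0504 to 0.135). At 1 week the signals were 640, 637 and 829 in 1w0 nM, 774, 806 and 725 in 1w5 nM, and 690, 680 and 775 in 1w50 nM, with no call, and the effect of 5 nM differed between weeks by -0.71 (limma adjusted p = 0.00525).

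The other 3 MAPT probe sets were called in no comparison. The probe set 203928_x_at, whose suffix marks probes that can match other transcripts, ranged from 509 to 843, 203929_s_at from 222 to 483 and 203930_s_at from 51.1 to 109. At 4 weeks with 5 nM, 203930_s_at stood at -0.46 (limma adjusted p = 0.0982) and 203928_x_at at -0.26 (adjusted p = 0.164), but 203929_s_at at 0.08 (adjusted p = 0.799). On 203930_s_at and 203928_x_at every array lay below every 4w0 nM array, as on 206401_s_at. In this comparison 52.8% of all probe sets did not overlap, in either direction. With 50 nM 203930_s_at stood at -0.22, 203928_x_at at 0.07 and 203929_s_at at 0.27 (95% interval of the last -0.18 to 0.71). Correlations between the 4 over the arrays ran from -0.38 to 0.40, and the call of MAPT rests on 1 probe set.

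MAP2, the dendritic counterpart of tau, was dim and steady, between 43.6 and 67.7 over the 18 arrays. Its changes at 4 weeks were -0.09 with either dose (95% intervals -0.45 to 0.26), which leaves room for changes of up to that size. STMN1, the stathmin of dividing cells, was bright, with a lowest signal of 1688, a median of 2061 and a highest of 2228 over the 18 arrays. Its changes were -0.04 with 5 nM (95% interval -0.24 to 0.16) and -0.02 with 50 nM (-0.22 to 0.18) at 4 weeks, and it was called in no comparison. A further STMN1 probe set is shared with MIR3917 and is not counted. STMN2, the neuronal stathmin, was near background throughout, at 2.54 to 15.5 on 203000_at and below 32 on every array on 203001_s_at, and was not tested.

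**Figure D3:**
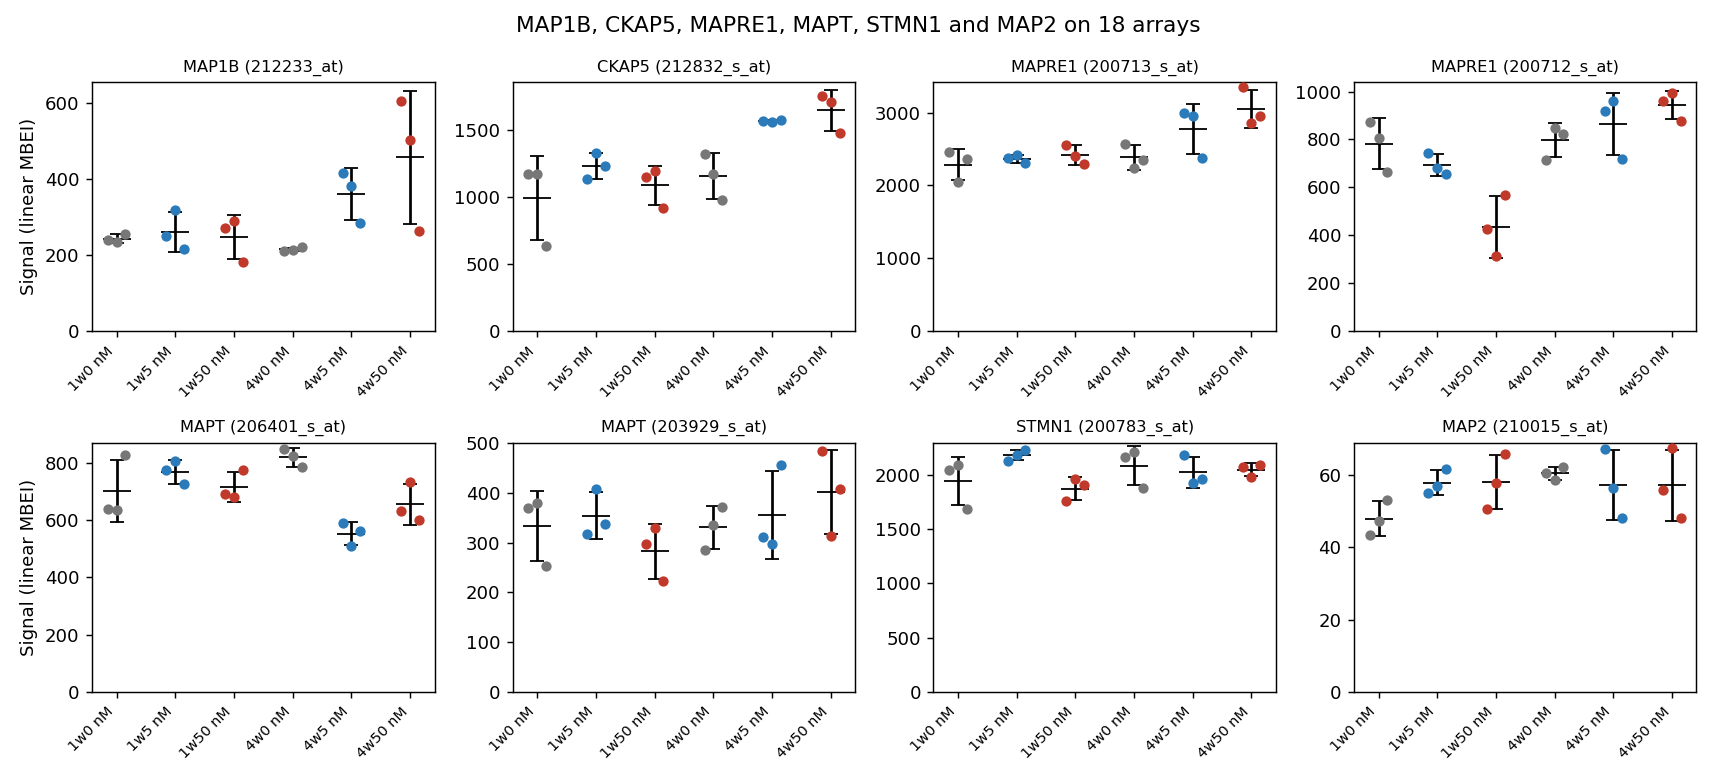
Linear signal of each array (points) for probe sets of MAP1B, CKAP5, MAPRE1, MAPT, STMN1 and MAP2 in the 6 groups of 3 arrays, with group means as dashes and SDs as error bars. In 4w50 nM the mean of MAP1B is 458 against 216 in 4w0 nM and that of CKAP5 is 1650 against 1162, whereas STMN1 stays between 1688 and 2228.

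Over the 17 probe sets, the remaining comparisons gave fewer calls. In 1w5 nM against 1w0 nM limma called 0 of 17, where 6.68% of all probe sets were called, with 2 at an unadjusted p below 0.05, 2 called with array weights and 1 by the t-test of the methods with its fold limit. In 1w50 nM against 1w0 nM, 1 rose (DCX) and 2 fell (CLASP2 and MAPRE1), with 21.8% of all called, 8.23% higher and 13.6% lower. In 4w50 nM against 4w5 nM 5 were higher (the DCX and CLASP2 probe sets) and 0 lower, or 29.4%, with 16.6% of all called, 9.53% higher and 7.07% lower. In 1w50 nM against 1w5 nM 0 were called by limma, with 0.0073% of all called, 5 at an unadjusted p below 0.05 and 6 with array weights. In 4w0 nM against 1w0 nM 0 were called by limma, with 3.26% of all called and 1 both at an unadjusted p below 0.05 and with array weights. The effect of 5 nM differed between weeks for 5 probe sets, 1 higher and 4 lower at 4 weeks (32.3% of all called, 15.4% higher and 16.8% lower), and that of 50 nM for 6, 5 higher and 1 lower (45.2% of all called, 25.6% higher and 19.7% lower). Apart from 29.4% against 16.6% in the comparison of the doses at 4 weeks, these shares are near or below those of all probe sets. That 29.4% comes from DCX and CLASP2 alone, each counted by several probe sets that move together. With 1 probe set per gene, 2 of 9 were called in this comparison.

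Beside the 10 genes, 107 other genes of microtubule regulation were listed by role, of which 82 were tested, with 144 probe sets. At 4 weeks 34.0% of them were called with 5 nM (27 up, 22 down) and 43.8% with 50 nM (31 up, 32 down), near the shares over all probe sets. The counts by list are to be read against 18.3% higher and 14.1% lower over all probe sets with 5 nM, and 22.9% and 18.1% with 50 nM. End-binding and plus-end genes had 36 probe sets, of which 11 rose and 1 fell under 5 nM while 11 rose and 7 fell under 50 nM, with medians of 0.18 and 0.13 against 0.03 and 0.01 over all. The medians of the lists that follow were -0.08 and -0.14 for lattice-binding, 0.67 and 0.55 for severing, 0.01 and -0.02 for folding and modification, and -0.19 and -0.15 for kinases and phosphatases. Of 41 probe sets of lattice-binding genes, 6 rose and 9 fell, then 6 rose and 10 fell. Of 3 probe sets of severing genes 2 rose and 0 fell at either dose. Of 26 for tubulin folding and modification 1 rose and 4 fell, then 4 rose and 3 fell, and of 35 for kinases and phosphatases 7 rose and 8 fell, then 8 rose and 9 fell.

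Several of these genes moved in part as CLASP2 did, up at 4 weeks with both doses and down at 1 week with 50 nM. In CLASP2 that fall rests on 1 probe set. The genes were named for being called at 4 weeks with both doses, so a change there comes from the choice. In 1w50 nM against 1w0 nM 13.6% of all probe sets were called lower, and the share with both directions was not counted. Unlike CLASP2, the genes given here were not called higher under 50 nM than under 5 nM at 4 weeks. The log2 differences were 0.34 for APC on its brighter probe set, -0.07 for CAMSAP2, -0.13 for SPAST and -0.01 for CDK5R1. APC, a tumour suppressor that binds EB1 and plus ends, had signals on its brighter probe set of 192, 178 and 177 in 4w0 nM, 437, 318 and 402 in 4w5 nM, and 544, 398 and 520 in 4w50 nM. It rose by 1.07 (limma adjusted p = 8.83e-05) and 1.41 (adjusted p = 5.92e-06) and in 1w50 nM fell by 0.64 (adjusted p = 0.00721). CAMSAP2, which caps minus ends, rose by 1.13 and 1.06 (limma adjusted p = 0.000416 and 0.000438) and in 1w50 nM fell by 0.75 (adjusted p = 0.0119). SPAST, or spastin, which cuts microtubules, rose by 1.08 and 0.95 (limma adjusted p = 0.00623 and 0.0107), and it fell by 0.96 in 1w50 nM (adjusted p = 0.0193), where replicate 3 of 1w0 nM stood at 118 against 282 and 353. CDK5R1, the activator of the tau kinase CDK5, rose by 1.15 and 1.13 (limma adjusted p = 0.000588 and 0.000409) from a 4w0 nM mean of 61.9, and in 1w50 nM fell by 0.81 (adjusted p = 0.0111).

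Genes that moved the other way included GTSE1, a plus-end protein of dividing cells, which fell by 0.66 with 5 nM (limma adjusted p = 0.0443) and by 1.29 with 50 nM (adjusted p = 0.000488). MARK2, a kinase that phosphorylates tau and other lattice proteins, fell by 1.18 and 1.05 (limma adjusted p = 0.00343 and 0.00573). Its probe set was dim, at 20.3 to 50.6 on the 4-week rotenone arrays. TBCB, a tubulin folding cofactor, fell by 0.69 and 0.58 (limma adjusted p = 0.000724 and 0.0018). These MARK2 and TBCB probe sets have the x_at suffix, which marks probes that can match other transcripts. The named genes also include EML1 (1.43 and 0.72), RMDN1 (1.17 and 0.56), AGTPBP1 (0.64 and 1.33) and MAPK9, or JNK2 (0.76 and 1.07). AGTPBP1 trims glutamates from tubulin tails. These log2 changes with 5 nM and 50 nM at 4 weeks all passed and were upward, unlike those of GTSE1, MARK2 and TBCB. In 1w50 nM these genes fell by 0.74, 0.80, 0.77 and 0.70 in this order (limma adjusted p = 0.0456, 0.00756, 0.0281 and 0.00649). Between the 4-week doses RMDN1 was lower under 50 nM by 0.60 (limma adjusted p = 0.0407). CHFR, a mitotic checkpoint ubiquitin ligase, and CAV1, the caveolar coat protein, are from a list the study chose on these samples, so their direction is no independent evidence, and of its 3 probe sets 0 changed with 5 nM and 3 fell with 50 nM at 4 weeks. CHFR stood at 0.24 with 5 nM and fell by 1.19 with 50 nM (limma adjusted p = 2.29e-05). The 2 probe sets of CAV1 stood at -0.07 and 0.20 with 5 nM and fell by 2.49 (adjusted p = 0.00179) and 1.46 (limma adjusted p = 0.00922) with 50 nM.

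The probe sets of other genes whose log2 signals ran most like a member's over the 18 arrays are given as a description, since all points share the 6 groups. For DCX they were PGM1 (Pearson r 0.965) and THBS2 (0.959), for CLASP2 ASCC3 (0.982) and PNRC2 (0.979), and for TPPP SBF1 (0.963) and TP53TG1 (0.956). CKAP5 ran most like CLASP1, its fellow plus-end protein and the paralog of CLASP2 (0.918), and RBM22 (0.916). MAPRE1 came with STRAP (0.913) and RGS12 (0.898), MAP1B with LPCAT4 (0.906) and ZNF26 (0.900), and MAPT with STAT3 (0.887) and IGF1 (0.881). The steady members had weaker partners, MEN1 (0.799) and APLP1 (0.798) for STMN1 and GP1BA (0.722) and EIF3I (0.685) for MAP2.

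The tested genes next to CLASP2, DCX and TPPP on their chromosomes were read in addition, an observation chosen after the members' values were seen, with the order of genes taken from RefSeq on GRCh38.p14. Of the 10 genes on each side of CLASP2, 12 of 20 were higher and 1 lower under 50 nM than under 5 nM at 4 weeks, with a median change of 0.68, where 9.53% of all probe sets were higher and 7.07% lower. GPD1L (1.33), CRTAP (1.02), STAC (1.78) and VILL (1.68) were among the higher, and EPM2AIP1 (-3.13) was the lower. Against 4w0 nM, 9 of the 20 were higher and 1 lower with 50 nM (median 0.52), where 22.9% of all were higher and 18.1% lower, and 3 were higher and 2 lower with 5 nM (median -0.10), where 18.3% and 14.1% were. Around DCX, 4 of 20 were higher and 0 lower between the doses, CHRDL1 (2.56) among them. Of 14 neighbours of TPPP, 1 was higher and 0 lower with 5 nM at 4 weeks and 5 were higher and 0 lower with 50 nM, against the same shares over all, so the fall of TPPP was not shared by its tested neighbours.

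**Figure D4:**
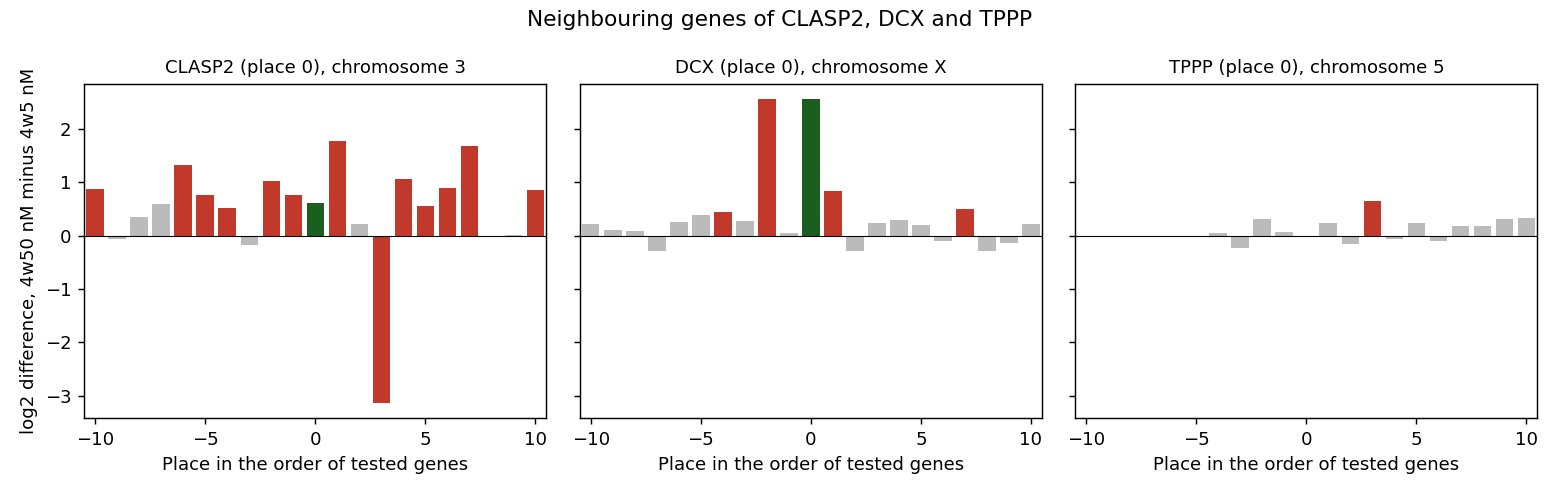
Log2 difference of 4w50 nM minus 4w5 nM for CLASP2, DCX and TPPP and up to 10 tested genes on each side, by place in the gene order along the chromosome, with called neighbours in red, others in grey and the named gene in green. Around CLASP2 12 of 20 neighbours are higher in 4w50 nM, around DCX 4 of 20 and around TPPP 1 of 14.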

How the data were processed

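The signals were measured on 18 Affymetrix HG-U133A arrays of SK-N-MC cells, 3 in each of 6 groups of dose and week. The authors normalized them and summarized each probe set by the model-based index of dChip, and the deposited values are probe set intensities on a linear scale, from 0.46 to 11258.4, with array medians of 87.03 to 101.53. The method of normalization is not given in the sources used here. Between 595 and 783 values an array equal 1. Arrays have no read depth, and their number limits the precision. Signals below 16 were set to 16 and log2 was taken, which understates the change of dim genes.

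Of 22283 probe sets, 19065 have a single gene in the platform annotation, 1043 several and 2107 none, and 68 are controls. Those with 1 gene and at least 50 on at least 3 arrays, 13705 of 9162 genes, were fitted with limma 3.58.1 in R 4.3.3, with a mean for each group over all 18 arrays (12 residual degrees of freedom) and an intensity trend. Adjusted p-values are those of Benjamini and Hochberg within each of the 9 comparisons. The 10 genes and the other lists were chosen with earlier results of these data known. Named are every probe set of the 10 genes, in each other list the up to 3 probe sets with the largest change among those called at 4 weeks in both doses (or in either, where none was), and the 2 most alike probe sets of each gene. Alternatives were the floor, a started log, 2 scalings, 2 filters, 1 probe set per gene, fewer arrays in the fit, no trend, array weights, a replicate block, the unpaired test that the methods name, and each array left out in turn. Promoters of MAPT and STMN2 and protein sequences were not used here. SK-N-MC is an established cell line.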

Additional observations from a re-analysis of the deposited data

Results flagged for a closer look

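The effect of a dose against the vehicle of its week differed between 4 weeks and 1 week, by the interaction in limma, for 11 results of these genes, given as log2 differences. For 5 nM they were -2.73 and -2.29 for the 2 probe sets of DCX, -1.77 for TPPP, -0.71 for MAPT on 206401_s_at, and 0.53 for CLASP2 on 212306_at (adjusted p = 0.041). For 50 nM they were 1.53, 2.23 and 1.48 for CLASP2 on 212306_at, 212308_at and 212309_at, -2.18 for TPPP, 1.12 for MAPRE1 on 200712_s_at, and 1.01 for MAP1B on 212233_at. Both values of TPPP are bounds, since all its 4-week rotenone signals lie below the floor of 16, and with a floor of 32 that for 5 nM did not pass (adjusted p = 0.0506). For MAPRE1 and the brightest CLASP2 probe set the effect of 50 nM was below 0 at 1 week and above 0 at 4 weeks, and of these 4-week values that of MAPRE1, 0.25, did not pass. Both vehicle groups enter each of these values, where replicate 2 of 1w0 nM was low for DCX and replicate 3 correlated least with its group. Without replicate 3 of 1w0 nM the difference for CLASP2 with 5 nM was 0.45 and did not pass (adjusted p = 0.0615), and it was lost in the same way on leaving out each of 10 arrays (adjusted p up to 0.101). The other 10 differences passed without either of these arrays.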

How the results depend on the processing

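Of 34 changes called for these probe sets, 22 passed under every limma alternative run and without each array in turn, and 0 reversed. The unpaired test of the methods is not part of this count. The counts of calls moved as follows. In 1w5 nM against 1w0 nM the count of 0 became 2 with array weights and 1 by the unpaired test of the methods with its fold limit. In 1w50 nM against 1w0 nM the count of 3 became 5 with a floor of 32, 1 with only the groups compared in the fit, 1 by the test of the methods and 0 after its adjustment by Benjamini and Hochberg. In 4w5 nM against 4w0 nM 7 became 13 with array weights and 3 by the test of the methods. In 4w50 nM against 4w0 nM 8 became 4 by that test and 5 after its adjustment. In every comparison the count of that test carries the fold limit, and the count after adjustment does not. In 4w50 nM against 4w5 nM 5 became 2 with 1 probe set per gene, 2 by the test of the methods and 1 after its adjustment. In 1w50 nM against 1w5 nM 0 became 6, and in 4w0 nM against 1w0 nM 0 became 1, with array weights. The difference of 5 nM effects went from 5 to 8 with array weights and that of 50 nM effects from 6 to 3 with 1 probe set per gene. Leaving out 1 array in turn gave 0 to 2, 2 to 5, 5 to 9, 5 to 10, 4 to 7, 0 to 1, 0 to 1, 4 to 7 and 5 to 9 calls, in this order of comparisons. The causes of these shifts were not tested. Among single calls not named with this loss in the report, those with 50 nM at 1 week of DCX, CLASP2 and MAPRE1, that of CLASP2 on 212309_at between the doses and the difference between weeks of CLASP2 with 5 nM were lost with only the compared groups in the fit. The last was also lost after quantile normalization, with array weights and with the replicate block, which also ended the call of MAPT with 50 nM (adjusted p = 0.0586). The unpaired test was run for counts only. The direction split at 4w5 nM was 3 higher and 4 lower, 2 and 5 after quantile normalization and 5 and 4 after median scaling. Over all probe sets, median scaling moved the median difference of 5 nM effects from -0.03 to 0.10. The check made found no steady pairing by replicate number. Of 45 pairs of same-numbered arrays 11 correlated above 0.1 and 11 below -0.1 in their deviations from group means, from -0.5 to 0.36. Each mean is of 3 arrays and a single odd array can set these values, so the check cannot exclude pairing. With the replicate block the counts were 0, 4, 9, 7, 5, 0, 0, 4 and 6. Signal near background limits TPPP, STMN2 and MAP2, for which small changes cannot be seen.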
